A study of Mus musculus with 10 samples.

Results

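Starting cells that carried the GFP reporter were compared with starting cells that lacked it, whatever virus the cells had then received. All 10 arrays of the series entered the comparison, 6 from GFP+ starts and 4 from GFP- starts, with 2 arrays in each of 5 groups. The starting cells were CD4+ T cells sorted from mouse spleen. DEREG mice carry a transgene in which the Foxp3 promoter drives GFP fused to a diphtheria toxin receptor, so GFP marks cells in which that promoter is active. The GFP+ groups were scurfy Foxp3 (GFP+ cells read from the label as DEREG/Scurfy, given the Foxp3 virus), scurfy mock (the same cells with the empty vector) and Treg mock (GFP+ cells of DEREG mice with the empty vector). Scurfy mice carry a mutated Foxp3 gene. The GFP- groups were Tconv Foxp3 and Tconv mock, which are conventional T cells of DEREG mice with the Foxp3 virus or the empty vector. Every group was activated through CD3 and CD28, transduced with a retrovirus that carries an NGFR marker, and sorted again for NGFR. The strain field gives a Balb/c DEREG background for every array, and the sample titles call GFP+ starts epigenetics(+) and GFP- starts epigenetics(-). No age, sex, animal number or pooling was stated. Nothing says that the 2 arrays of a group came from separate animals or cultures, so the p-values measure the spread between arrays, which may be technical.

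Regulatory T cells (Treg) restrain other immune cells, and most of them take their identity in the thymus, where Foxp3, a forkhead transcription factor, is switched on. Their stability is tied to Treg-specific demethylated regions, stretches of DNA in Foxp3, Ikzf2, Ikzf4, Il2ra, Ctla4 and Tnfrsf18 that lose methylation at CpG sites in Treg and stay methylated in conventional T cells. In scurfy mice the reporter still marks cells that started the Treg program, although they make no working Foxp3 protein. A comparison by GFP is therefore meant to follow the state a cell started from, and the vector labels cut across it in the scurfy and Tconv groups. The series holds no GFP- array of scurfy cells. In the 4 scurfy arrays among the 6 GFP+ arrays, the starting state and the scurfy genotype thus cannot be told apart. Methylation itself was not measured on these arrays.

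The array carries 45037 probe sets besides controls, and each of 18193 genes was read through its probe set with the highest mean. Values are deposited intensities, compared as log2(intensity + 16), a scale that understates the change of dim genes. Array medians lay between 18.8 and 36.5 intensity units. Replicates of a group correlated at 0.958 to 0.984 over the 18193 genes, and the lowest value was that of the 2 scurfy mock arrays. For 3 of the 4 scurfy arrays the closest match was not the replicate: scurfy Foxp3 array 1 and scurfy mock array 2 were closest to each other, at 0.983, and scurfy mock array 1 was closest to scurfy Foxp3 array 1, at 0.960 against 0.958 for its replicate. The Foxp3 probe set was not higher on arrays labelled Foxp3 than on mock arrays of the same starting cell, so vector groups are called by their labels. Whether that probe set covers the vector transcript or the labels are at fault could not be settled, and the vector content of arrays labelled Foxp3 is therefore uncertain. Pan T cell genes were bright throughout, with a summed intensity of 28070 to 32680 on GFP+ arrays and 23500 to 30070 on GFP- arrays. The CD8 genes Cd8a and Cd8b1 summed to 51.1 to 109 on GFP+ arrays and 62.6 to 83.8 on GFP- arrays, while 10 B cell markers summed to 159 to 7911 and 157 to 1105. The 20 interferon-induced genes summed to 1231 to 21290 on GFP+ arrays and 1059 to 2157 on GFP- arrays. The highest mean of the interferon-induced genes was on scurfy mock array 1 and that of the B cell markers on scurfy Foxp3 array 2. In whole-population RNA, fewer cells of a type and less RNA per cell cannot be told apart.

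GFP+ starts differed from GFP- starts in 286 of the 18193 genes (1.57%) at an adjusted p under 0.05 (limma, Benjamini-Hochberg over all probe sets, here a call). Of these, 212 (1.17%) were higher in GFP+ starts and 74 (0.407%) were lower. The 6 GFP+ values and the 4 GFP- values did not overlap for 799 genes (4.39%), with 476 (2.62%) higher and 323 (1.78%) lower. Genes that met both conditions numbered 193 (1.06%), with 142 (0.781%) higher and 51 (0.28%) lower, and these are described below as the separating genes. The split depended on scaling. Higher and lower calls numbered 264 and 150 after quantile normalization and 264 and 193 with a common 75th percentile, and all 193 kept their direction in every alternative in which they were measured. The median difference over all genes was 0.05 as deposited, and -0.02 under either scaling.

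**Figure D1:**
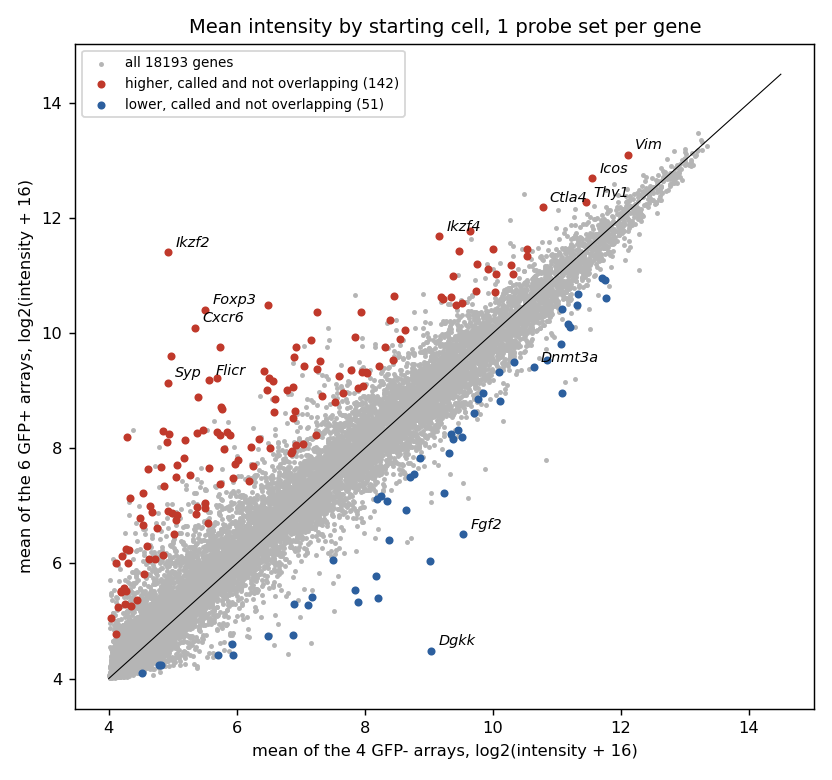
Mean log2(intensity + 16) of the 6 GFP+ arrays (vertical) against that of the 4 GFP- arrays (horizontal) for 18193 genes, 1 probe set each. The 142 higher separating genes (red) reach farther from the diagonal than the 51 lower ones (blue), with Ikzf2 farthest above it and Dgkk farthest below.

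The median difference was 1.76 on the log2 scale among the 142 higher genes and -1.25 among the 51 lower genes. These sizes describe genes chosen on the same contrast. The smallest difference was 0.65 among the higher and 0.43 in size among the lower genes. For 30 of the 142 higher genes, all 4 GFP- arrays lay below their own array's median intensity, and for 6 of the 51 lower genes all 6 GFP+ arrays did. Of 102 separating genes with more than 1 probe set, 45 had another probe set that met both conditions, and 0 had one that met them in the opposite direction.

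Ikzf2, which encodes Helios, an Ikaros family transcription factor of Treg, separated the starts by the widest margin. Its intensity ranged over 2261, 2706 and 3341 (lowest, median, highest) on GFP+ arrays and was 16.9 and 24.4 in Tconv Foxp3 and 10.2 and 9.03 in Tconv mock. Wherever 3 values are given for GFP+ arrays below they are the lowest, the median and the highest, and 4 values for GFP- arrays are the 2 of Tconv Foxp3 and then the 2 of Tconv mock. Every GFP+ array was bright, with scurfy and Treg arrays interleaved, and every GFP- array was near background. The difference was 6.47 (SE 0.18, limma adjusted p = 5.86e-07), and all 3 of its probe sets met both conditions.

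Foxp3 itself read 948 and 691 on the scurfy Foxp3 arrays, 1188 and 1114 on scurfy mock arrays and 2130 and 3128 on Treg mock arrays, against 18.04 and 18.9 in Tconv Foxp3 and 53.9 and 35.9 in Tconv mock. Its single probe set was thus bright on all GFP+ arrays, including those of the Foxp3 mutant, and brightest in Treg mock. The groups did not overlap, and the difference was 4.90 (SE 0.19, limma adjusted p = 4.82e-06). The starting cells were sorted on GFP driven by the Foxp3 promoter, so a higher Foxp3 reading in GFP+ starts is no independent result. Tconv arrays labelled Foxp3 were not above their mock arrays.

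Ikzf4, which encodes Eos, an Ikaros family partner of Foxp3, read 2742, 3304 and 4028 (lowest, median, highest) on GFP+ arrays. On GFP- arrays it read 523 and 480 in Tconv Foxp3 and 721 and 540 in Tconv mock. Here the GFP- arrays were well above background and still below every GFP+ array, with a difference of 2.52 (SE 0.15, limma adjusted p = 0.000109). Ikzf1 and Ikzf3, the other Ikaros family genes listed, differed by -0.54 and 0.05 and were not called.

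**Figure D2:**
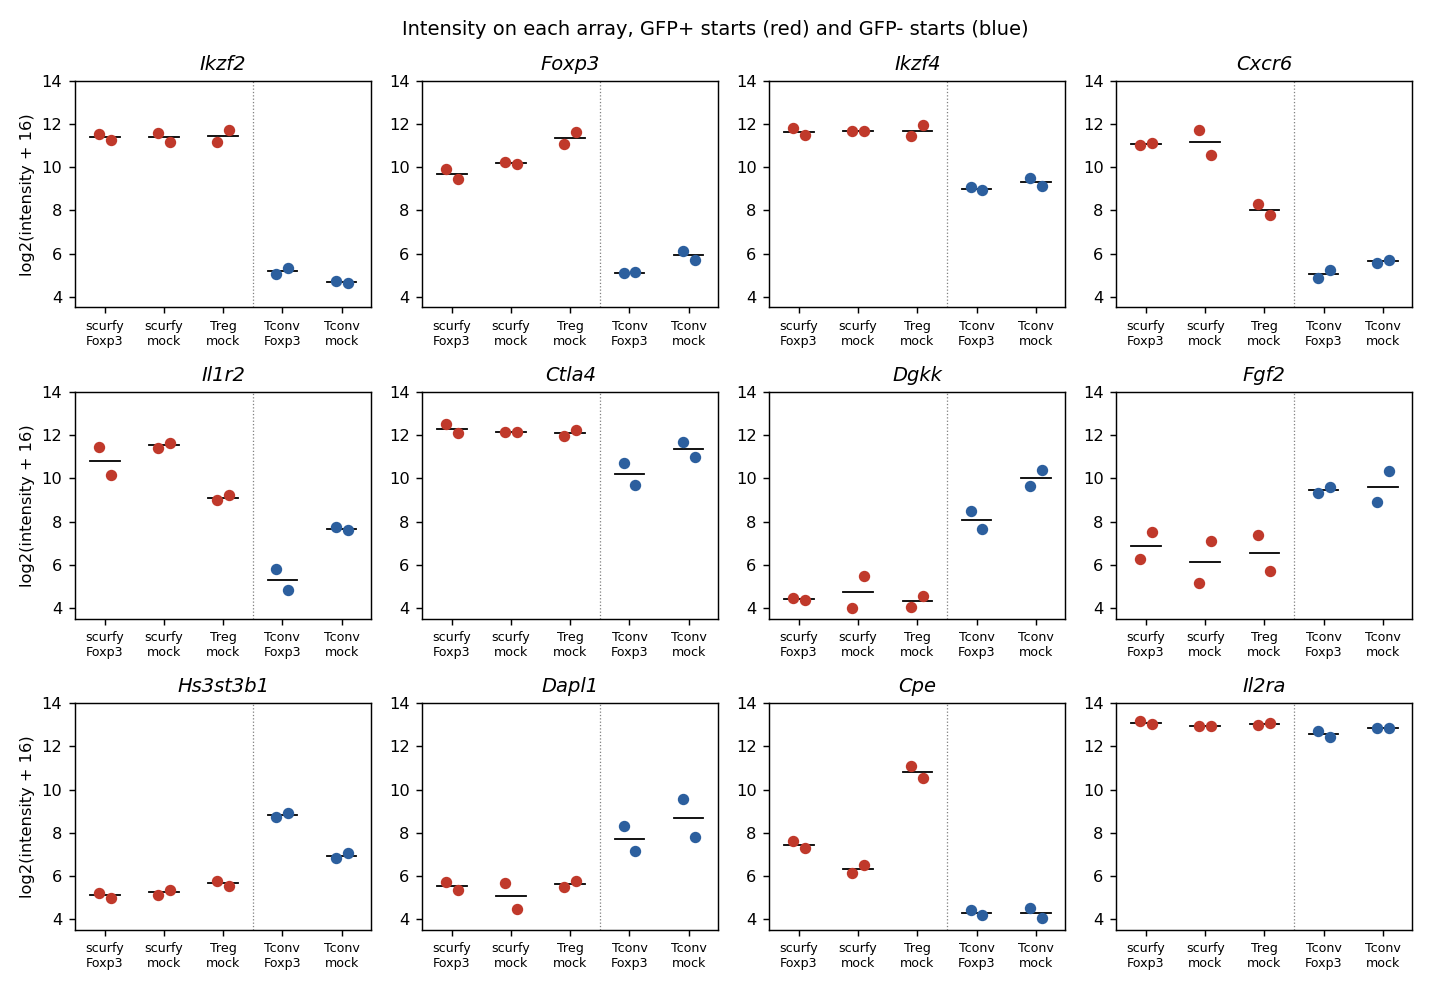
Log2(intensity + 16) of 12 genes on every array, with GFP+ starts in red on the left and GFP- starts in blue on the right. Each point is 1 array and each bar a group mean of 2 arrays. Ikzf2, Foxp3 and Dgkk separate the starts by a wide gap, Cxcr6 and Cpe also differ among GFP+ groups, and Il2ra is high on all arrays.

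Dgkk was the gene that fell most. It encodes diacylglycerol kinase kappa, of the family that converts the second messenger diacylglycerol to phosphatidic acid. Its intensity was 6.24 and 4.36 on the scurfy Foxp3 arrays, 0.139 and 28.3 on scurfy mock arrays and 0.548 and 7.45 on Treg mock arrays, against 343 and 183 in Tconv Foxp3 and 785 and 1328 in Tconv mock. All GFP+ arrays were near background and all GFP- arrays well above them. The difference was -4.56 (SE 0.35, limma adjusted p = 5e-04). The other 7 diacylglycerol kinases measured differed by -0.28 (Dgka) to 0.76 (Dgkh), and none of them was called. Ikzf2, Foxp3, Ikzf4 and Dgkk all went with the GFP label on every array. These markers were chosen with earlier results of these data known, so they are no independent check of the label.

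Foxp3 and Dgkk lie on the X chromosome, and genes beside Foxp3 separated the starts as well. In the order of genes on the array, Ppp1r3f, Flicr, Foxp3 and Ccdc22 follow one another, and all of them rose. Cacna1f comes next at 0.21 and was not called, and then comes Syp. The promoter windows of these genes are shown because 4 neighbours moved the same way, while Dgkk, 8 measured genes before Foxp3, moved the other way. They come from RefSeq (GRCm38.p6), run from 250 bases before to 50 after an annotated start, and are written along the gene with CG dinucleotides, the sites of methylation, in capitals. Foxp3 has 2 windows in that table, at chrX:7579426-7579725 and chrX:7580233-7580532 on the plus strand. Flicr lies at chrX:7573350-7573649 (plus), Ppp1r3f at chrX:7574232-7574531 (minus), Ccdc22 at chrX:7605371-7605670 (minus), Syp at chrX:7638330-7638629 (plus) and Dgkk at chrX:6779056-6779355 (plus).
Ppp1r3f: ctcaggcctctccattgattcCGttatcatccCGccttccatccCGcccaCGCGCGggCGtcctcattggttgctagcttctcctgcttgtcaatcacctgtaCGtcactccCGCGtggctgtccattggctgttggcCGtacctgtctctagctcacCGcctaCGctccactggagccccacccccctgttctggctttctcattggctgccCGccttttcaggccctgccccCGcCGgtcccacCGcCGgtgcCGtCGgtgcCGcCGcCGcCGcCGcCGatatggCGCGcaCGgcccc
Flicr: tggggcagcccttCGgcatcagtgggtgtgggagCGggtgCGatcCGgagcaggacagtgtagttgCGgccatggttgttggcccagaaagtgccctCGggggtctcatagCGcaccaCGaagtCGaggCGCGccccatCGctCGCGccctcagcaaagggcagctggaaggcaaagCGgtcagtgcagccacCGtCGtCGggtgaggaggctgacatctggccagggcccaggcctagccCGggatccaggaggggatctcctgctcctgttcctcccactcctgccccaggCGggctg
Foxp3, first window: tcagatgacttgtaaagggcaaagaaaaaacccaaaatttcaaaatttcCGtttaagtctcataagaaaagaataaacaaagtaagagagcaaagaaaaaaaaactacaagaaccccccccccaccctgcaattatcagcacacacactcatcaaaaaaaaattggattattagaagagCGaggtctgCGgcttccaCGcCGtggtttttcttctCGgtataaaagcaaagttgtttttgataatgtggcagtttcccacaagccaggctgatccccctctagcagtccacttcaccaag
Foxp3, second window: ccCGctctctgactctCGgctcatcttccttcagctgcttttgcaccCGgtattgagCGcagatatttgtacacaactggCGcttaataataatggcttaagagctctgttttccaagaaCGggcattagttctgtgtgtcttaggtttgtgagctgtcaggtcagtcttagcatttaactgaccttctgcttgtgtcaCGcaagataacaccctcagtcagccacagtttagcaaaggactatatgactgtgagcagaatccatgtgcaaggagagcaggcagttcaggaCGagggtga
Ccdc22: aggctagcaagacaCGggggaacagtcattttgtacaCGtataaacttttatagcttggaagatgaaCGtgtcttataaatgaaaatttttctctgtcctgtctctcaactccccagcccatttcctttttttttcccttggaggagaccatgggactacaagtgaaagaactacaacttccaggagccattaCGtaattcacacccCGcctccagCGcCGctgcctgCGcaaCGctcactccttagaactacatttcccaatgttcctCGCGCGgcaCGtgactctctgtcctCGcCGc
Syp: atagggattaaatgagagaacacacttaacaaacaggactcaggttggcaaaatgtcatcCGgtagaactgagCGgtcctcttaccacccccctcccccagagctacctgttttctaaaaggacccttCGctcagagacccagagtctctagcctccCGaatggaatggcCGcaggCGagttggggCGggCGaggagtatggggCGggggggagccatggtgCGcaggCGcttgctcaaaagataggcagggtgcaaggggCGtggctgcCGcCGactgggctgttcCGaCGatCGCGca
Dgkk: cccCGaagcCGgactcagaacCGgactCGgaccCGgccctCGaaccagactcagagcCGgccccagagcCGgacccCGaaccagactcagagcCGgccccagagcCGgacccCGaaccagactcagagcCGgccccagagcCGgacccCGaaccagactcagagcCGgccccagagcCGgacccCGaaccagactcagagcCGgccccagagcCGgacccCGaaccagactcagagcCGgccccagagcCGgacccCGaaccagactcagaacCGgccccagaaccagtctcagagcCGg

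The Foxp3 windows hold 6 and 8 CG dinucleotides, against 29 in Ppp1r3f, 15 in Ccdc22, 26 in Dgkk, 20 in Flicr and 18 in Syp. The median was 18 over the 117 higher separating genes that have a window in the table, 23 over 45 lower ones and 18 over the 14452 genes with a window. These counts describe sequence alone, and methylation at these sites was not measured.

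Flicr, a noncoding RNA next to Foxp3 that is known to modulate Foxp3 expression in mouse Treg, read 188 and 306 on the scurfy Foxp3 arrays, 570 and 505 on scurfy mock arrays and 1500 and 1243 on Treg mock arrays. The GFP- arrays read 36.0 and 33.5 in Tconv Foxp3 and 32.8 and 24.0 in Tconv mock. The groups did not overlap and the order among GFP+ groups was the one seen for Foxp3, with a difference of 3.62 (SE 0.20, limma adjusted p = 7.14e-05). Ppp1r3f, a regulatory subunit of protein phosphatase 1, ranged over 961, 1349 and 1704 on GFP+ arrays and read 243, 187, 261 and 237 on GFP- arrays, a difference of 2.43 (SE 0.20, limma adjusted p = 0.000711). Ccdc22, a component of the COMMD/CCDC22/CCDC93 trafficking complex, ranged over 1357, 1843 and 3519 and read 702, 770, 671 and 482, a difference of 1.61 (SE 0.14, limma adjusted p = 0.000975).

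Syp encodes synaptophysin, a membrane protein of synaptic vesicles. It ranged over 300, 531 and 1474 on GFP+ arrays and read 45.9, 8.48, 4.45 and 11.1 on GFP- arrays. The difference was 4.22 (SE 0.44, limma adjusted p = 0.00257), and 1 of its 2 probe sets met both conditions. Farther out, Usp27x rose by 1.23 but its groups overlapped, and Plp2 differed by 0.44 without a call (limma adjusted p = 0.0751). On the X chromosome as a whole, 15 of 618 placed genes (2.43%) separated the starts, beside 1.06% of all genes, 1.95% on chromosome 3 and 1.78% on chromosome 1. Elsewhere, Ctla4 and its neighbour Icos both separated the starts.

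**Figure D3:**
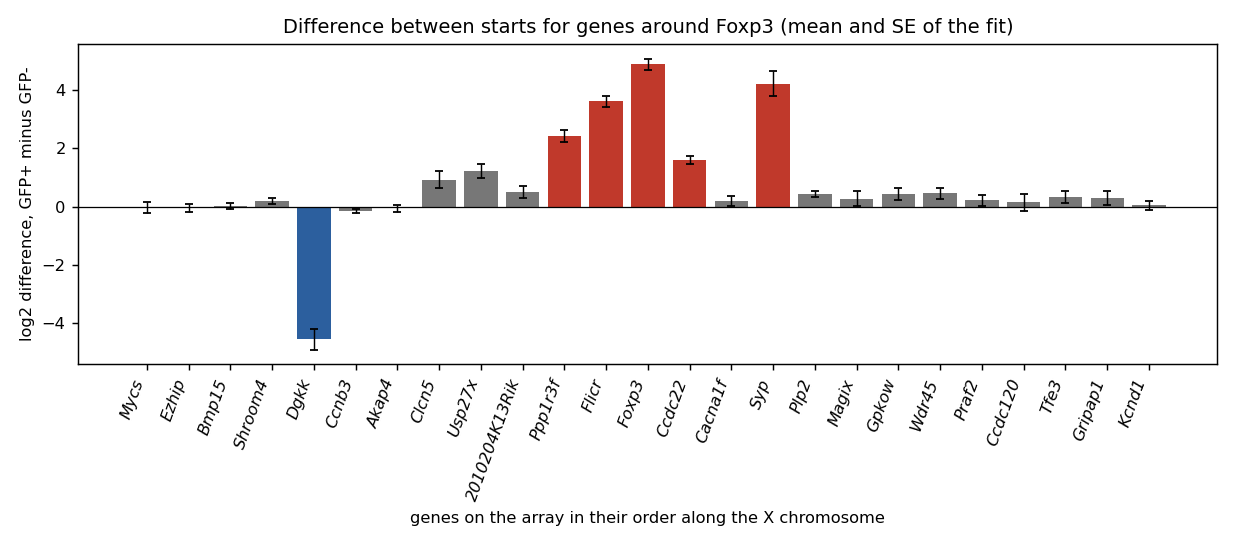
Log2 difference between GFP+ and GFP- starts, with the SE of the fit, for the genes measured on either side of Foxp3 in their order along the X chromosome. Red bars (higher) and the blue bar (lower) mark separating genes, and grey bars the rest. Ppp1r3f, Flicr, Foxp3, Ccdc22 and Syp stand above their neighbours, and Dgkk is the lone bar far below 0.

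Of 31 listed Treg-related transcription factors, 4 rose, namely Ikzf2, Foxp3, Ikzf4 and Tox2, and 0 fell. Over all genes 1.17% rose and 0.407% fell. The list's median was 0.14, beside 0.05 for all genes. Tox2, an HMG-box factor, ranged over 80.9, 329 and 588 on GFP+ arrays and read 1.63, 22.0, 13.6 and 26.0 on GFP- arrays, a difference of 3.20 (SE 0.27, limma adjusted p = 8e-04). Treg mock exceeded Tconv mock by 1.65 (limma adjusted p = 0.159), and scurfy mock did by 4.00 (limma adjusted p = 0.0087). Rora, the nuclear receptor RORalpha of Th17 cells and tissue Treg, ranged over 501, 814 and 1873 and read 46.1, 59.4, 17.7 and 35.3, a difference of 4.03 (SE 0.33, limma adjusted p = 0.000696). Neither gene's groups overlapped, and 7 of the 9 Rora probe sets met both conditions. Bach2, a repressor of effector genes, differed by -1.25 and Prdm1, its Blimp-1 counterpart, by 1.76, and neither passed the test (limma adjusted p = 0.158 and 0.0675). Gata3, the Th2 factor, differed by 0.00.

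Among the 6 genes known for Treg-specific demethylated regions, 4 rose (Ikzf2, Foxp3, Ikzf4 and Ctla4), and the median was 1.96. Over all genes 1.17% rose and the median was 0.05. The remaining pair of the 6, Il2ra and Tnfrsf18, encode CD25, the high-affinity chain of the IL-2 receptor, and GITR, a costimulatory TNF receptor. Both are induced in activated conventional T cells too. Il2ra differed by 0.31 (SE 0.09, limma adjusted p = 0.143) and Tnfrsf18 by 0.24 (SE 0.17, limma adjusted p = 0.561). The Il2ra values of the starts did not overlap, but the gap was only 0.07 on the log2 scale, and Il2ra passed the test once dim probe sets were left out (adjusted p = 0.0341 above the array median).

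Of 26 Treg surface and effector molecules measured, 11 rose and 0 fell, and 8 of the 11 were separating genes. Over all genes 1.17% rose, 0.407% fell and 0.781% separated the starts upward. The median of the list was 1.28, beside 0.05 for all genes. The list averaged 8.83 and 8.40 (log2) on Tconv arrays labelled Foxp3, below the 9.56 and 9.06 of their mock arrays. All GFP+ arrays were higher, at 9.67 to 10.5. The Treg-related transcription factors went the other way in Tconv cells, at 9.2 and 9.3 under the Foxp3 label against 9.0 and 8.9. Ctla4, the inhibitory receptor that takes CD80 and CD86 from other cells, ranged over 3946, 4547 and 5865 on GFP+ arrays and read 1676, 804, 3336 and 2031 on GFP- arrays, a difference of 1.41 (SE 0.22, limma adjusted p = 0.0205). Its neighbour Icos, a costimulatory receptor, ranged over 5046, 6546 and 8064 and read 2011, 2626, 3797 and 3989, a difference of 1.14 (SE 0.13, limma adjusted p = 0.00417). Both were bright on every array, and the starts differed in degree. Between mock groups, Treg exceeded Tconv by 0.75 for Ctla4 and 0.54 for Icos, without a call (limma adjusted p = 0.404 and 0.303). Scurfy exceeded Tconv by 0.80 and 0.83 on mock arrays and by 2.10 and 1.67 on arrays labelled Foxp3.

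Entpd1 and Nt5e encode CD39 and CD73, the enzymes that convert extracellular ATP to adenosine. Entpd1 ranged over 451, 875 and 2542 on GFP+ arrays and read 89.8, 23.9, 394 and 227 on GFP- arrays, a difference of 2.71 (SE 0.36, limma adjusted p = 0.0105). Treg mock exceeded Tconv mock by only 0.66 (limma adjusted p = 0.665). Scurfy exceeded Tconv by 2.41 on mock arrays and 3.93 on arrays labelled Foxp3. Nt5e read 62.0 and 124 on the scurfy Foxp3 arrays, 22.0 and 26.4 on scurfy mock arrays and 838 and 720 on Treg mock arrays, against 9.08 and 13.5 in Tconv Foxp3 and 3.92 and 3.77 in Tconv mock. All GFP+ values lay above all GFP- values, but the scurfy mock arrays were close to the GFP- arrays, and the difference was 2.68 (SE 0.25, limma adjusted p = 0.0015).

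Fgl2, a secreted suppressive fibrinogen-like protein, ranged over 113, 317 and 758 on GFP+ arrays and read 0.622, 7.93, 6.70 and 60.3 on GFP- arrays, a difference of 3.44 (SE 0.51, limma adjusted p = 0.0164). Klrg1, an inhibitory lectin-like receptor of effector Treg, ranged over 131, 311 and 563 and read 31.0, 22.2, 76.4 and 6.97, a difference of 2.85 (SE 0.37, limma adjusted p = 0.00872). Socs2 (1.44) and Swap70 (1.28) completed the separating genes of this list. Tnfrsf1b (1.29), Tnfrsf9 (0.87) and Itgb8 (1.93) rose with overlapping groups. Among 10 co-inhibitory receptors, Ctla4 and Klrg1 separated the starts, beside 0.781% of all genes that did so upward. Havcr2 (TIM-3) rose by 2.14 with overlap, and the median of the 10 was 0.02. Izumo1r, folate receptor 4, lay lower on every GFP+ array (-1.19) but was not called.

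Of 21 receptors and adhesion molecules that guide migration, 6 rose and 0 fell, with 4 separating genes and a median of 1.00. Over all genes 1.17% rose, 0.781% separated the starts upward, and the median was 0.05. Cxcr6, the receptor for CXCL16, read 2111 and 2247 on the scurfy Foxp3 arrays, 3433 and 1485 on scurfy mock arrays and 300 and 202 on Treg mock arrays, against 13.3 and 22.3 in Tconv Foxp3 and 31.4 and 36.5 in Tconv mock. Treg mock was lower than scurfy and still above every GFP- array, and the difference was 4.74 (SE 0.25, limma adjusted p = 5.77e-05). Gpr15, a colon homing receptor, ranged over 90.0, 195 and 347 and read 16.9, 14.6, 0.652 and 5.90 on GFP- arrays, a difference of 3.03 (SE 0.29, limma adjusted p = 0.00162). Cxcr4, the receptor for CXCL12, ranged over 1676, 4009 and 4686 and read 822, 1217, 662 and 573, a difference of 2.13 (SE 0.20, limma adjusted p = 0.00143). Cd44, the hyaluronan receptor, rose by 1.01 with a gap of 0.01. Ccr1 (1.97) and S1pr1 (2.55), the lymph node egress receptor, rose with overlapping groups, while Ccr6 (2.12) and Itgb7 (1.21) did not overlap and were not called.

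Il1r2, the decoy receptor that binds IL-1 without signalling, read 2824 and 1126 on the scurfy Foxp3 arrays, 2697 and 3197 on scurfy mock arrays and 489 and 593 on Treg mock arrays, against 39.1 and 12.6 in Tconv Foxp3 and 196 and 176 in Tconv mock. Every GFP+ array was higher than every GFP- array, and the difference was 4.00 (SE 0.28, limma adjusted p = 0.000272). Treg mock exceeded Tconv mock by 1.46 (limma adjusted p = 0.213), and scurfy mock did by 3.87 (limma adjusted p = 0.0122). Il18r1, a chain of the IL-18 receptor, rose by 2.08 with overlapping groups, and the 7 genes of the IL-1 and IL-18 receptor family had a median of 0.88.

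Large increases were also measured for genes outside these lists or in smaller ones. Adam19, a membrane metalloproteinase, ranged over 386, 798 and 1391 on GFP+ arrays and read 4.34, 27.5, 1.17 and 49.0 on GFP- arrays, a difference of 4.62 (SE 0.42, limma adjusted p = 0.00114). Cpe, carboxypeptidase E of prohormone processing, read 178 and 139 on the scurfy Foxp3 arrays, 55.0 and 74.9 on scurfy mock arrays and 2178 and 1488 on Treg mock arrays, against 5.54, 1.96, 6.75 and 0.391 on GFP- arrays. It was thus highest in Treg mock and near background in GFP- starts, with a difference of 3.91 (SE 0.24, limma adjusted p = 0.000109). Gcnt1, a glycosyltransferase that branches O-glycans on selectin ligands, ranged over 287, 385 and 1195 and read 24.3, 22.7, 24.6 and 33.3, a difference of 3.49 (SE 0.35, limma adjusted p = 0.00212).

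Sdc4, the heparan sulfate proteoglycan syndecan-4, ranged over 797, 1438 and 1852 on GFP+ arrays and read 128, 76.2, 188 and 184 on GFP- arrays, a difference of 3.12 (SE 0.22, limma adjusted p = 0.000268). Myo1e, an unconventional myosin, ranged over 171, 262 and 469 and read 14.3, 21.6, 12.5 and 11.8, a difference of 3.31 (SE 0.29, limma adjusted p = 0.00109). Only 1 of its 4 probe sets met both conditions. The actin regulators Pfn2 (2.84) and Enah (2.97), the calcium-binding protein S100a4 (2.92), the Rac activator Tiam1 (1.83) and the intermediate filament vimentin (Vim, 1.00) also separated the starts. For Enah, 1 of 6 probe sets met both conditions, and for Pfn2 2 of 3 did. Vim was bright everywhere, at 8193, 8682 and 9462 on GFP+ arrays and 2952, 2248, 7324 and 7639 on GFP- arrays.

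The remaining genes among the 25 with the largest increases were Myadm (3.53), Wls (2.95), Parp12 (2.91), Nrp2 (2.88), Oas1a (2.86) and Zc3h12c (2.79). Wls carries Wnt proteins to the cell surface, and Nrp2 encodes neuropilin-2, a semaphorin and VEGF receptor. For Nrp2, 1 of 4 probe sets met both conditions, and for Wls 2 of 4 did. Oas1a and Parp12 are interferon-induced, and both were highest on scurfy mock array 1, at 682 and 1287, the array with the highest mean of interferon-induced genes. On the other GFP+ arrays, Oas1a read 56.9 to 393 and Parp12 read 136 to 752. All 20 interferon-induced genes measured had a positive difference, beside 58.4% of all genes, and their median was 1.11, beside 0.05. Only Oas1a was called, beside 1.17% of all genes called higher. Rtp4 and Oasl2 did not overlap without a call, and 2.62% of all genes did not overlap upward. Without scurfy mock array 1, Oas1a and Parp12 differed by 2.37 and 2.49 (limma adjusted p = 0.0292 and 0.0221). Over the 29 alternatives Oas1a lost its call in 14 and Parp12 in 13, with adjusted p up to 0.265 and 0.244.

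Among genes of TGF-beta and BMP signalling, the inhibitory Smad7 rose by 2.19 and the receptors Bmpr1a and Bmpr2 by 1.58 and 1.30, and all 3 separated the starts. They were picked from the separating genes after their values were seen. No list of that pathway was counted, so they say nothing of its other members.

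Several of the genes that fell most were close to background in GFP+ starts. Fgf2, fibroblast growth factor 2, ranged over 19.0, 90.6 and 165 on GFP+ arrays and read 628, 750, 456 and 1299 on GFP- arrays, a difference of -3.03 (SE 0.50, limma adjusted p = 0.0248). Hs3st3b1, a heparan sulfate sulfotransferase, ranged over 15.3, 23.0 and 38.9 and read 414, 470, 98.1 and 115, a difference of -2.56 (SE 0.22, limma adjusted p = 0.000922). Dapl1, a death-associated-protein-like gene of naive T cells, ranged over 5.92, 31.2 and 38.4 and read 298, 127, 751 and 207, a difference of -2.81 (SE 0.42, limma adjusted p = 0.0164). In all 3 genes the lowest GFP- array stood well above the highest GFP+ array.

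Fam71b ranged over 25.4, 46.9 and 96.0 on GFP+ arrays and read 556, 554, 659 and 309 on GFP- arrays, a difference of -2.97 (SE 0.31, limma adjusted p = 0.00286). Pros1, protein S, a ligand of TAM receptors, ranged over 284, 522 and 711 and read 2781, 3766, 1347 and 1519, a difference of -2.12 (SE 0.21, limma adjusted p = 0.00196). Lgals7 (-2.39), a galectin, Rnd3 (-2.29), Lancl3 (-2.12), the noncoding Snhg3 (-2.02), the phosphatase Ptpn5 (-1.97), the calcium channel subunit Cacna1c (-1.85), the purinergic receptor P2ry1 (-1.76), Sh3d19 (-1.75) and Filip1l (-1.72) complete the 15 that fell most.

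Dnmt3a, a de novo DNA methyltransferase, separated the starts at a higher level. It read 716 and 561 on the scurfy Foxp3 arrays, 484 and 504 on scurfy mock arrays and 929 and 933 on Treg mock arrays, against 1714 and 1821 in Tconv Foxp3 and 1563 and 1262 in Tconv mock. All GFP+ arrays were lower, and all 5 of its probe sets met both conditions, with a difference of -1.23 (SE 0.14, limma adjusted p = 0.00379). In the pan T list, Thy1 rose by 0.82 and Cd6, a CD166 receptor, fell by 0.77.

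In metabolism, 12 of 13 cholesterol synthesis genes had a negative difference (beside 41.6% of all genes), with a median of -0.77, but only Pmvk, phosphomevalonate kinase, was called (-1.31, SE 0.19, limma adjusted p = 0.015). Pmvk ranged over 553, 651 and 1303 on GFP+ arrays and read 2396, 1704, 1961 and 1389 on GFP- arrays. The summed intensity of the 13 was 10940 to 13360 on 5 GFP+ arrays and 27440 on scurfy mock array 1, against 19460 to 25720 on GFP- arrays, so the starts overlapped through that array. The serine synthesis enzyme Phgdh ranged over 574, 921 and 1378 and read 1604, 1456, 3466 and 2548, a difference of -1.25 (SE 0.16, limma adjusted p = 0.0083). Psat1 and Psph, which act after it in that pathway, lay lower on every GFP+ array by 0.58 and 0.52 but were not called. No glycolysis gene of 14 was called, and their median was -0.04.

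Calls numbered 0 of 18 effector cytokines, 0 of 14 Th1 genes and 0 of 13 Th2 genes, which does not stand apart from the 1.57% of all genes. Il2 differed by -2.35 (SE 0.56, limma adjusted p = 0.0912) and Ifng by 1.32 (SE 0.54, limma adjusted p = 0.299), each with overlapping groups. Foxp3 is known to repress Il2, but Il2 was highest in Tconv Foxp3. It read 254 and 1298 there, 11.3 and 101.5 in Tconv mock and 6.96 to 77.9 on GFP+ arrays. Against Tconv mock, Il2 differed by 0.0042 in Treg mock and by -1.09 in scurfy mock. Il10 went the other way between the vector labels of Tconv cells. Arrays labelled Foxp3 read 198 and 45.5, while their mock counterparts reached 2173 and 1835. Those mock values lay inside the GFP+ range of 774 to 3933. Between starts Il10 differed by 1.78 (SE 0.39, limma adjusted p = 0.0689), with overlapping groups. The cause of the gap within Tconv cells was not tested. Il7r, the IL-7 receptor that is usually low on Treg, was higher in GFP+ starts by 1.30 (SE 0.25, limma adjusted p = 0.0428), with overlap. Cell cycle genes had a median of -0.14, and 0 of 27 were called, a number that does not stand apart from the same 1.57%. Of 24 genes induced early by the T cell receptor, Egr3 (-2.14) and Myc (-1.24) fell and Dusp4 (1.10) rose with overlapping groups, and Nfkbiz (1.57) rose without overlap. Over all genes 0.407% fell, 1.17% rose and 0.781% separated the starts upward. The median of the 24 was 0.07, beside 0.05 for all genes.

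The marker lists of other cell types (CD8, NK, B, myeloid, mast and red blood cells) gave 0 calls, which does not stand apart from the 1.57% of all genes. Their medians ran from -0.01 in red blood cell markers to 0.57 in B cell markers, where Cd74, a class II chaperone, differed by 2.06 and Cd79a by 1.34. Among the other markers, Tyrobp differed by 1.63 (limma adjusted p = 0.0502), with 284 and 383 on the scurfy Foxp3 arrays. Kit differed by 2.02 without overlap (limma adjusted p = 0.0975), and Nkg7 by -1.02 with overlap. Over the alternatives Tyrobp was called in 10, Kit in 5 and Nkg7 in 0. These lists therefore do not exclude RNA of other cell types. The part of B cell RNA in the increases of other genes was not tested. Without scurfy mock array 1 and scurfy Foxp3 array 2, the highest in interferon-induced and B cell genes, 137 genes separated the starts upward and 41 downward, and 120 of the 193 stayed called.

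**Figure D4:**
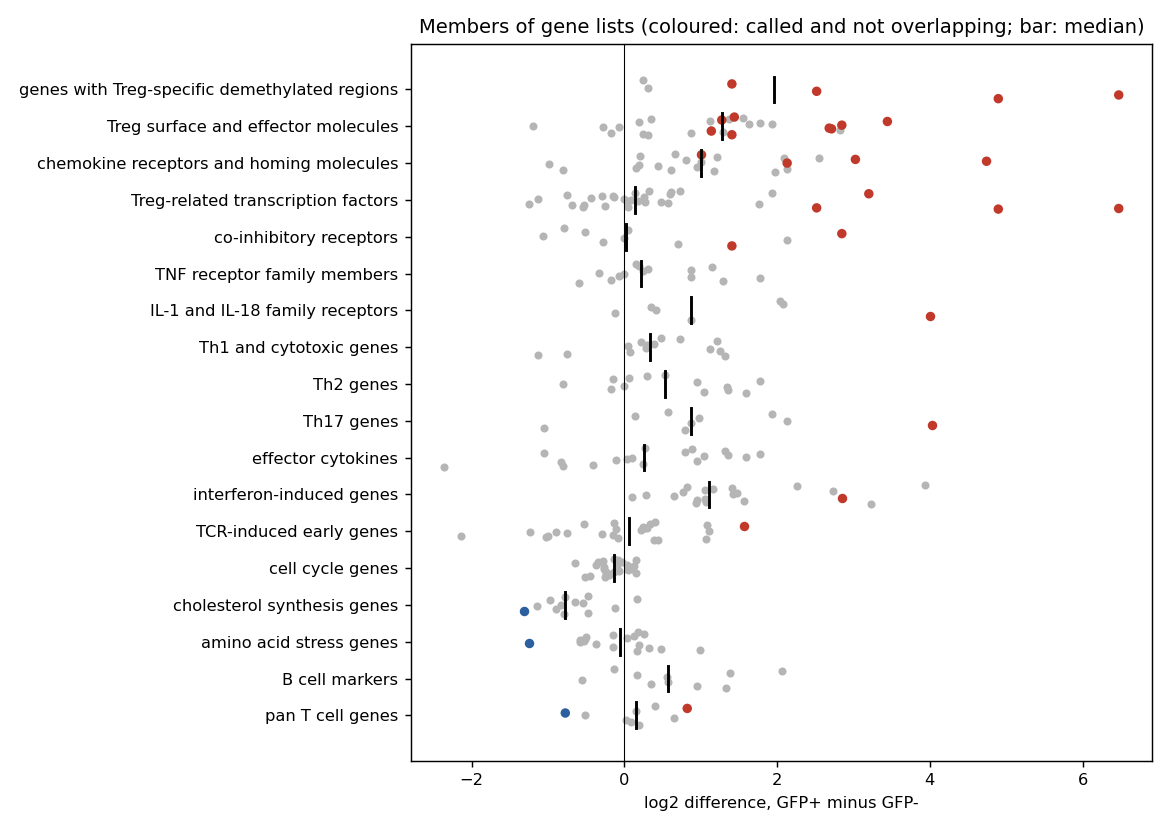
Log2 difference between GFP+ and GFP- starts of each measured member of 18 gene lists, with separating genes in red (higher) and blue (lower), other members in grey and the list median as a black bar. Treg lists and homing receptors hold most of the red points, and the cholesterol synthesis members lie almost all left of 0.

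Some called genes failed to separate the starts because 1 or more arrays crossed. The largest such difference was that of St6gal1, a sialyltransferase, at 2.66. Grp, gastrin-releasing peptide, fell by 2.54, and it read 0.530 to 62.8 on GFP+ arrays, against 2.59 and 11.6 in Tconv Foxp3 and 551 and 1435 in Tconv mock. Mmp7, a matrix metalloproteinase, fell by 2.37, with 9.98 on the highest GFP+ array and 9.42 on the lowest GFP- array. At the edge of the rule, Ctss and Cd44 were just inside with a gap of 0.01, and Ctsd and Tnfrsf9 just outside with an overlap of the same size.

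The 6 GFP+ arrays were not alike, and the 4 scurfy arrays were set against the 2 Treg mock arrays in the same fit, a contrast chosen after the data had been seen. Over all genes 14 (0.077%) were called higher in scurfy and 22 (0.121%) lower. Among the 193 separating genes, Cxcr6 was higher in scurfy by 3.09 (SE 0.34, limma adjusted p = 0.0132). Cpe was lower by 3.94 on the log2 scale (-3.94, SE 0.32, limma adjusted p = 0.00765), Nt5e by 3.62 (-3.62, SE 0.34, limma adjusted p = 0.00856) and Flicr by 1.88 (-1.88, SE 0.27, limma adjusted p = 0.0391). The Foxp3 difference of -1.40 was not called (limma adjusted p = 0.0883). In 17 higher separating genes scurfy exceeded Treg by more than 1, and in 10 it was lower by more than 1. All 4 of these gaps were also present between scurfy mock and Treg mock arrays, which share the empty vector. Scurfy mice carry the Foxp3 mutation and are known to be ill, and the mutation and the illness cannot be told apart here.

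**Figure D5:**
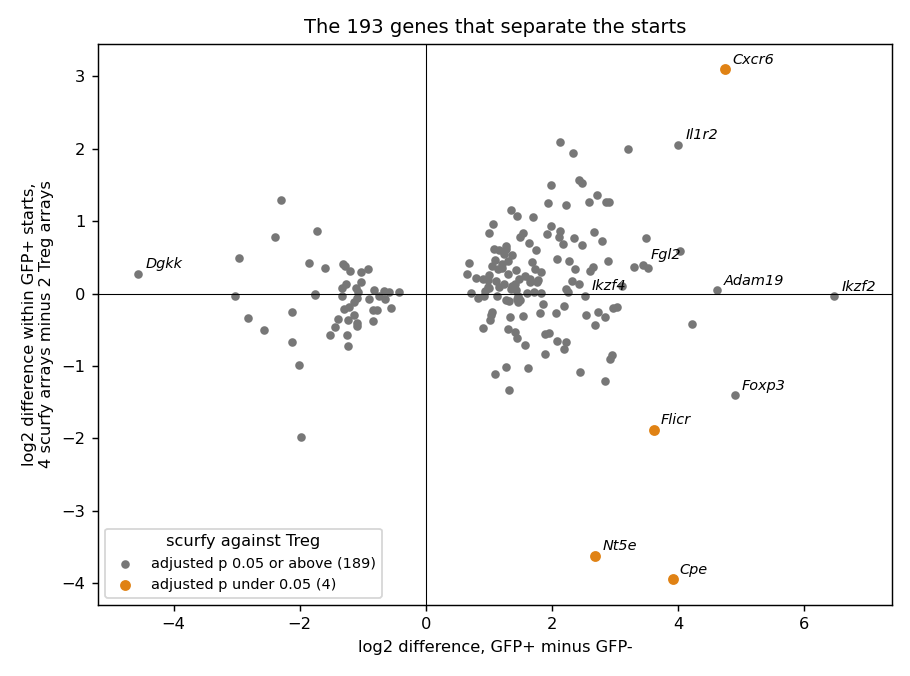
Log2 difference between the 4 scurfy and the 2 Treg arrays (vertical) against that between GFP+ and GFP- starts (horizontal) for the 193 separating genes. Orange points are the 4 genes called between scurfy and Treg, Cxcr6 above 0 and Flicr, Nt5e and Cpe below it. Ikzf2 and Ikzf4 lie near 0.

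Whether the difference between starts depended on the vector label was tested in the 8 arrays that cross both, as an interaction. It gave 0 calls (0%) among the 18193 genes with limma, and 1380 genes (7.59%) at an unadjusted p under 0.05. With 2 arrays a group this does not show that the difference was the same under both labels.

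The difference between starts was then read on arrays outside the fit that chose the genes. Those arrays hold the same kinds of starting cells, and nothing says that they came from other animals or cultures. The comparison was also chosen with earlier results of these data known, so this is no independent check. On the 6 mock arrays alone, 15 genes (0.0824%) were called, 13 higher (0.0715%) and 2 lower (0.011%). The 13 were Ikzf2, Foxp3, Rora, Cpe, Flicr, Cxcr6, Nt5e, Il1r2, Ikzf4, Ppp1r3f, Tiam1, Ccdc22 and Akap13, of which Foxp3 is tied to the sort on GFP itself. On the 4 arrays labelled Foxp3, 2 of scurfy and 2 of Tconv cells, all 13 were again higher in GFP+ starts and none overlapped. Of all genes with a positive difference on the mock arrays, 52% had the same sign and 24% did not overlap in that direction.

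For a comparison of like with like, scurfy and Tconv arrays alone were set against each other under each label. Ikzf2 differed by 6.22 on arrays labelled Foxp3 and 6.70 on mock arrays, Foxp3 by 4.58 and 4.28, Ikzf4 by 2.64 and 2.38, and Ppp1r3f by 2.46 and 2.48. Il1r2 differed by 5.50 on arrays labelled Foxp3 and 3.87 on mock arrays, and Flicr by 2.34 and 3.64, gaps that the interaction did not call (limma adjusted p = 0.716 and 0.708). Of the 2 lower genes, Dgkk kept its direction, at -3.65 on arrays labelled Foxp3 and -5.28 on mock arrays. Grp did not keep it, at 0.72 on arrays labelled Foxp3, and its interaction of 5.99 was not called (limma adjusted p = 0.38). Il10, which was not called between starts, differed by 4.91 under the Foxp3 label and by -0.40 under the mock label. Its interaction of 5.30 was not called either (limma adjusted p = 0.38). With dim probe sets left out before the fit, 59 higher genes were called on mock arrays. Of these, 52 kept their sign, against 51.8% of all genes that were positive there, and 5 did not overlap in the opposite direction.

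Leaving out each array in turn, 38 of the 193 separating genes stayed called in all 10 fits, 33 higher and 5 lower. They include Ikzf2, Foxp3, Ikzf4, Flicr, Ppp1r3f, Ccdc22, Syp, Rora, Tox2, Il1r2, Cxcr6, Cxcr4, Gpr15, Icos, Nt5e, Vim and Tiam1. The 5 lower ones are Dgkk, Fam71b, Hs3st3b1, Pros1 and Dnmt3a. Counts were smallest without 1 of the 4 Tconv arrays, at 40 to 63 higher and 6 to 9 lower separating genes.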

How the data were processed

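RNA of 10 samples was amplified, labelled with biotin and hybridised to Affymetrix Mouse Genome 430 2.0 arrays, per the labels' protocols. The authors used Affymetrix Expression Console, per the submitters' processing notes, and deposited 1 linear intensity per probe set and array. How the probes were summarised and scaled was not given in the sources used here. Of 45101 deposited rows, 64 control probe sets were left out. The platform table names 1 gene for 34945 probe sets, several for 932 and none for 9160, and 34741 symbols were updated through gene IDs of the GRCm38.p6 RefSeq table. The probe set with the highest mean stood for its gene.

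Groups came from titles and descriptions, where D_S was read as DEREG/Scurfy. Values were used as log2(intensity + 16), without further normalization or a filter. limma 3.58.1 in R 4.3.3 fitted 5 group means (lmFit, eBayes with trend), which left 5 residual degrees of freedom and a prior of 4.69. The contrast was the mean of the 3 GFP+ groups minus the mean of the 2 GFP- groups. p-values are two-sided, adjusted by Benjamini-Hochberg over 45037 probe sets, with a threshold of 0.05. The comparison, the members and the 30 gene lists were chosen with earlier results of these data known, and lists are described by counts and medians without a test.

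Genes were named by a rule. It took the 25 largest increases and the 15 largest decreases among separating genes without clone names, a fixed set (Foxp3, Ikzf2, Ikzf4, Dgkk, Flicr, Il2ra, Ctla4, Tnfrsf18, Il2, Ifng and Il7r), and from each list its separating members or otherwise up to 3 with the smallest p. Genes named outside it, such as neighbours of Foxp3, other list members, overlapping calls and TGF-beta family genes, were chosen after their values were seen.

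Alternatives were quantile normalization, a common 75th percentile, pseudocounts of 1 and 64, filters on dim probe sets, other eBayes options and array weights. Others were a 2-group fit, an additive fit of start and vector, a replicate block and a fit of only the probe set that stood for each gene. Each array and each group was also left out. Leaving out 2 arrays and the contrast of scurfy with Treg were added after seeing the data. The deviations of same-numbered arrays correlated at -0.14 to 0.14 over 10 pairs of groups, so the numbers were not taken to pair the arrays. The number of arrays limits the precision of every value. The code was tested on simulated data.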

Additional observations from a re-analysis of the deposited data

Results flagged for a closer look

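For the 101 genes named by rule, the highest and lowest arrays within the 6 GFP+ and within the 4 GFP- arrays were set against Dixon's 95% limit, and 10 of 202 groups (4.95%) held an array beyond it. Chance gives about 1 in 20. Dgkk read 28.3 on scurfy mock array 2, against 0.139 to 7.45 on the other GFP+ arrays, and Dapl1 read 5.92 on the same array, against 24.0 to 38.4. Among GFP- arrays, Tconv mock array 1 was lowest in Ptpn5, at 245 against 334 to 354, and in Rnd3, at 104 against 247 to 289. Cxcr4 read 1676 on Treg mock array 1, against 3260 to 4686 on the other GFP+ arrays, and Thy1 read 4302 on scurfy Foxp3 array 2, against 5036 to 5204. None of these arrays crossed to the other start. The other such arrays concerned dim genes that were not called, with Mcpt8 and Hba-a1 at 6.57 and 4.40 on scurfy mock array 2, Alas2 at 2.33 on scurfy Foxp3 array 2 and Xist at 46.4 on scurfy Foxp3 array 1.

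Within GFP+ starts, 4 of these genes differed between the 4 scurfy and the 2 Treg mock arrays (limma, adjusted p under 0.05), namely Cxcr6 by 3.09, Flicr by -1.88, Nt5e by -3.62 and Cpe by -3.94. Each was above all GFP- arrays in both kinds of GFP+ start.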

How the results depend on the processing

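The counts of calls depended on the setting more than the directions did. Against 212 higher and 74 lower calls, limma gave 336 higher with a pseudocount of 1 and 135 with 64. Filters at the array median and 75th percentile gave 455 and 333 higher and 164 and 158 lower calls. Quantile normalization gave 150 lower and a common 75th percentile 193. Array weights gave 329 and 131, eBayes without trend 48 lower, the 2-group fit 117 and 43, and the additive fit 107 and 32. Leaving out each array gave 41 to 312 higher and 8 to 147 lower calls. Leaving out a group gave 84 and 23 without scurfy Foxp3, 29 and 9 without Tconv Foxp3, and 89 and 24 without Tconv mock. Without the 2 arrays highest in interferon-induced and B cell genes, 46 were lower.

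Separating genes numbered 142 higher and 51 lower. They became 251 and 99 with the median filter, 75 and 20 without scurfy Foxp3, 29 and 9 without Tconv Foxp3, and 88 and 23 without Tconv mock. The lower count was 114 with quantile normalization, 152 with the 75th percentile, 105 with the 75th percentile filter, 89 with array weights and 30 with the additive fit. Single arrays left out gave 40 to 203 higher and 6 to 82 lower ones. Beside the Tconv arrays, leaving out Treg mock array 2 gave 67 and 17, scurfy Foxp3 array 1 90 higher and scurfy mock array 2 82 lower.

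With a replicate block, calls numbered 135 higher and 44 lower, with 97 and 30 separating genes. The pairing of the arrays by number was not borne out by their deviations.

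The interaction gave 1 call with the 75th percentile filter, and 0 to 8 when an array was left out. On mock arrays alone, higher calls became 59 with the median filter, of which 52 kept their sign on arrays labelled Foxp3, and lower calls 20, of which 14 did, beside 69.7% of all genes negative there. Quantile normalization gave 4 lower calls, of which 2 did, beside 58.2%.

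Of 60 called genes among the 101 named by rule, 17 stayed called in every setting: Ikzf2, Foxp3, Ikzf4, Flicr, Syp, Dgkk, Rora, Tox2, Il1r2, Cxcr4, Cxcr6, Gpr15, Adam19, Gcnt1, Sdc4, Myo1e and Pfn2. No called gene changed direction. Of 41 that were not called, 12 were called in at least 1 setting, among them Il2ra (smallest adjusted p = 0.0196) and Il2 (0.0235). The cause of these changes was not tested. Genes near background have little signal to measure, and a Tconv arm of 3 arrays rests on a lone array in 1 group, whose spread was assumed to match the others.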
